A study of Mus musculus with 15 samples.

Results

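The Gadd45 genes of the mouse, Gadd45a, Gadd45b and Gadd45g, were read in A.E7 T cells, a mouse CD4 T helper clone, under 5 treatments. The members are all probe sets whose platform annotation gives exactly 1 gene symbol that equals one of the 3 names. This rule found 4 probe sets of 36701 in all, of which 29131 carry 1 symbol: 102292_at for Gadd45a, 102779_at and 161666_f_at for Gadd45b, and 101979_at for Gadd45g. All 4 lie on chip type A, and chip types B and C hold 0. The cells were mock stimulated, stimulated through the T cell receptor (TCR) with anti-TCR alone (the treatment titled anergic), or stimulated with anti-TCR in the presence of cyclosporin A (CSA, which blocks the phosphatase calcineurin), of an inhibitor of protein kinase C that is not named further (PKCi), or of rapamycin, PD98059 and SB203580 together (Combo, which block mTOR, MEK and p38). The antibody, the doses and any signal through CD28 are not given in the sources used here. Each treatment's RNA was a pool of the 2, 4 and 6 h samples, so no time course can be read, and a change in RNA per cell cannot be told apart from a change in the cells that were present. There was 1 array per treatment on chip type A, so no value has a replicate, no difference has a test, and all arrays come from 1 clone.

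Gadd45 proteins are small nuclear stress proteins without enzyme activity of their own that act by binding partners. They bind and activate the kinase Map3k4, which feeds the p38 and JNK kinases, and they also bind Pcna, the cyclin kinase inhibitor p21 (Cdkn1a) and the mitotic kinase Cdk1. Gadd45a is a classical target of p53 after DNA damage, Gadd45b was found as a primary response gene of myeloid differentiation (MyD118) and is a target of NF-kB, and Gadd45g is induced by cytokines. In T helper 1 cells Gadd45b and Gadd45g are known for sustaining p38 activity and the production of interferon gamma.

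Gadd45b rose with anti-TCR, by 6.44-fold on one probe set and 10.3-fold on the other. The rise was mostly lost with CSA and with PKCi, though 161666_f_at with CSA stayed 2.85-fold above mock. Gadd45b read highest with Combo, though not beyond the technical spread over anti-TCR alone. Gadd45a lay far below the floor on every array, and Gadd45g lay below it on every array except Combo, where it read just above. The floor is the median of all values of chip type A, 51.1. Anything dimmer was set to the floor ahead of the log2 step, and a probe set counted as measured in a comparison only if its brighter value reached 4 times the floor (204.4). By that rule the Gadd45b probe sets, 2 of the 4 members, were measured in at least 1 comparison.

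The promoters of the 3 genes are shown because the genes carry the same family name but differed in whether any signal was seen. Each sequence is the 250 bases before the transcription start, 5′ to 3′ on the gene's strand, from RefSeq on build GRCm38.p6. They lie at chr6:67037408-67037657 on the minus strand for Gadd45a, chr10:80929841-80930090 on the plus strand for Gadd45b and chr13:51846425-51846674 on the plus strand for Gadd45g. Capitals mark matches to any of the 9 motifs named after them.
Gadd45b: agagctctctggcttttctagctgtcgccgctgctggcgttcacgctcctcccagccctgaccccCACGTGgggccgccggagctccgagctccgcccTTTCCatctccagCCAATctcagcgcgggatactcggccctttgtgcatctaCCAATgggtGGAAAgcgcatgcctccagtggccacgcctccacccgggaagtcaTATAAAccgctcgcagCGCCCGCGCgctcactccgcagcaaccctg
Gadd45a: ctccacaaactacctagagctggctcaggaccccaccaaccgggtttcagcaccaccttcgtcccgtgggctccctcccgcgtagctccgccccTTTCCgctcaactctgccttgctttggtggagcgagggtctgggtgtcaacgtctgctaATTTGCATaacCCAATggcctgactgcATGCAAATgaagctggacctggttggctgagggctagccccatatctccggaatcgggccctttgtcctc
Gadd45g: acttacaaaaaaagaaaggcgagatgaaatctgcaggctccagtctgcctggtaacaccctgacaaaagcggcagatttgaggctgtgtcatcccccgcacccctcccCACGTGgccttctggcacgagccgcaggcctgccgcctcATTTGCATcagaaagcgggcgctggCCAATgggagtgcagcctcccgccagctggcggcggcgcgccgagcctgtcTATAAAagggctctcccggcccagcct

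The motifs were searched on both strands in these windows and in all 32851 promoter windows of the same length. They were AP-1 (TGANTCA), CRE (TGACGTCA), the NFAT core (GGAAA), NF-kB (GGANTTTCC), Egr (GCGNGGGCG), the octamer (ATGCAAAT), the CCAAT box (CCAAT), the TATA box (TATAAA) and the E-box (CACGTG); every NF-kB match also holds an NFAT core, read on the other strand. The Gadd45b window held 2 NFAT cores, which start 152 and 91 bases before the start site, and 55.6% of all windows held at least 1. It held 1 Egr match, 30 bases before the start site, a match found in 4.70% of all windows and in neither of the other two members. A TATA box (12.4% of windows) was found 46 bases before the start of Gadd45b and 27 bases before that of Gadd45g, and an E-box (6.02%) in the same pair. The octamer, which 1.60% of windows held, occurred at 2 places in Gadd45a and 1 in Gadd45g. All 3 windows held a CCAAT box (33.8%), and Gadd45a also held 1 NFAT core. No AP-1 (6.75%), CRE (1.55%) or NF-kB (1.07%) letters were present in any of the 3. The Gadd45b window had the most CpG pairs of the family, 22 against 16 for Gadd45g and 11 for Gadd45a (median of all windows 6). These matches are letters in a window, and no binding was measured.

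Probe set 102779_at of Gadd45b read 108.0 with mock, 695.6 with anti-TCR, 146.2 with CSA, 151.2 with PKCi and 867.2 with Combo. Probe set 161666_f_at read 166.6, 1714.5, 474.4, 248.3 and 2536.0 in the same order; the f in its name marks probes that may also match related sequences. On both, the anti-TCR and Combo arrays were high and the mock, CSA and PKCi arrays low. With mock the probe sets stood at the 64.5th and 73.4th percentile of chip type A, and with anti-TCR at the 93.6th and 98.0th. With Combo they reached the 95.0th and 99.3rd percentile. Levels of different probe sets are not compared with each other, since each depends on its own probes.

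Gadd45a read 4.4 with mock, 3.0 with anti-TCR, 5.1 with CSA, 2.8 with PKCi and 4.1 with Combo, and Gadd45g read 10.3, 12.5, 47.3, 16.0 and 54.1. The brightest Gadd45a value was 0.0998 times the floor and the brightest Gadd45g value 1.06 times the floor. Values at or below the floor have no order, so no fold is given for either gene. The higher Gadd45g readings with CSA and Combo stayed within the range of dim probe sets, at the 48.0th and 52.7th percentile of their arrays. Failed probes would give the same readings, so the values leave the expression of these 2 genes unknown.

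**Figure D1:**
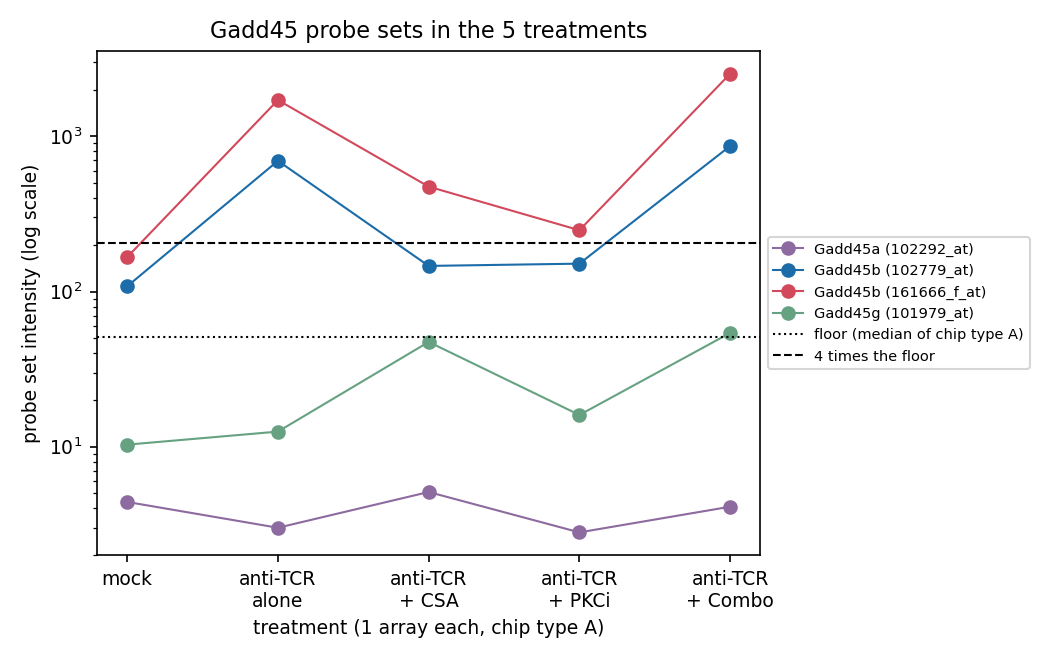
Intensity (log axis) of the 4 Gadd45 probe sets in the 5 treatments, 1 array per point, with the floor (51.1, dotted) and 4 times the floor (204.4, dashed); lines join the treatments of a probe set and are no time course. Both Gadd45b probe sets are high with anti-TCR and Combo, while Gadd45a stays between 2.8 and 5.1 and Gadd45g between 10.3 and 54.1.

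In the absence of replicates, the spread of a log2 ratio was estimated from genes read on more than 1 chip type, all of which were given the same RNA pools. This technical SD was 0.75 for anti-TCR against mock (848 pairs), 0.48 for CSA against anti-TCR (792), 0.71 for PKCi (867) and 0.55 for Combo (839). It covers arrays and probes and not cultures. A probe set is called changed when its values lie at least 2-fold apart.

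The comparison of anti-TCR with mock asks which genes respond to the receptor. Of the 4 Gadd45 probe sets 2 were measured and both rose, against a background of 12.4% of 8861 measured probe sets. Both mock values (108.0 and 166.6) lay under the brightness rule, so the probe sets entered this comparison through their anti-TCR value. The count, and the places and shares of higher ratios given below, are therefore a description. The log2 ratios of Gadd45b were 2.69 and 3.36, which are 3.56 and 4.45 technical SDs. Ordered from the highest ratio, 102779_at stood at place 162 and 161666_f_at at place 73 of the 8861, so 1.82% and 0.813% of the probe sets had a higher one. The probe sets differed by 0.68 on the log2 scale, within the spread seen between probe sets of other genes.

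The CSA arm asks which part of this response needs calcineurin. Both measured Gadd45b probe sets fell with CSA, where 5.8% of 8349 measured probe sets fell. The falls were 4.76-fold on 102779_at and 3.61-fold on 161666_f_at (log2 ratios -2.25 and -1.85, or -4.68 and -3.86 technical SDs). Of the measured probe sets 1.20% and 1.99% fell further. Here and with PKCi, 102779_at passed the brightness rule through its anti-TCR value alone. Its calls and its shares of probe sets that fell further are therefore a description in both arms. On 102779_at the CSA value kept 16.3% of the log2 induction over mock, and on 161666_f_at 44.9%. The log2 ratios with CSA differed by 0.40 between the probe sets, within the spread seen between probe sets of other genes. The difference between the shares was not tested.

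The PKCi arm asks the same of protein kinase C. Both measured Gadd45b probe sets fell, by 4.60-fold and 6.90-fold, where 10.5% of 8848 measured probe sets fell. The log2 ratios were -2.20 and -2.79, or -3.08 and -3.91 technical SDs, and 2.48% and 1.32% of probe sets fell further. Here the share of the log2 induction left was close on the probe sets, 18.1% and 17.1%.

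With Combo neither of the 2 measured Gadd45b probe sets passed 2-fold. Of 8608 measured probe sets 7.74% rose and 6.01% fell in this comparison. The values were 1.25-fold and 1.48-fold above anti-TCR alone (log2 ratios 0.32 and 0.56, or 0.57 and 1.02 technical SDs). A higher ratio was seen for 30.3% and 19.5% of the probe sets. The Combo treatment includes an inhibitor of p38, the kinase that lies downstream of Gadd45 proteins and Map3k4; the transcript of Gadd45b was not lower in that arm on either probe set. A rise of less than 2-fold cannot be told from no change here, since 2 technical SDs are 1.11.

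**Figure D2:**
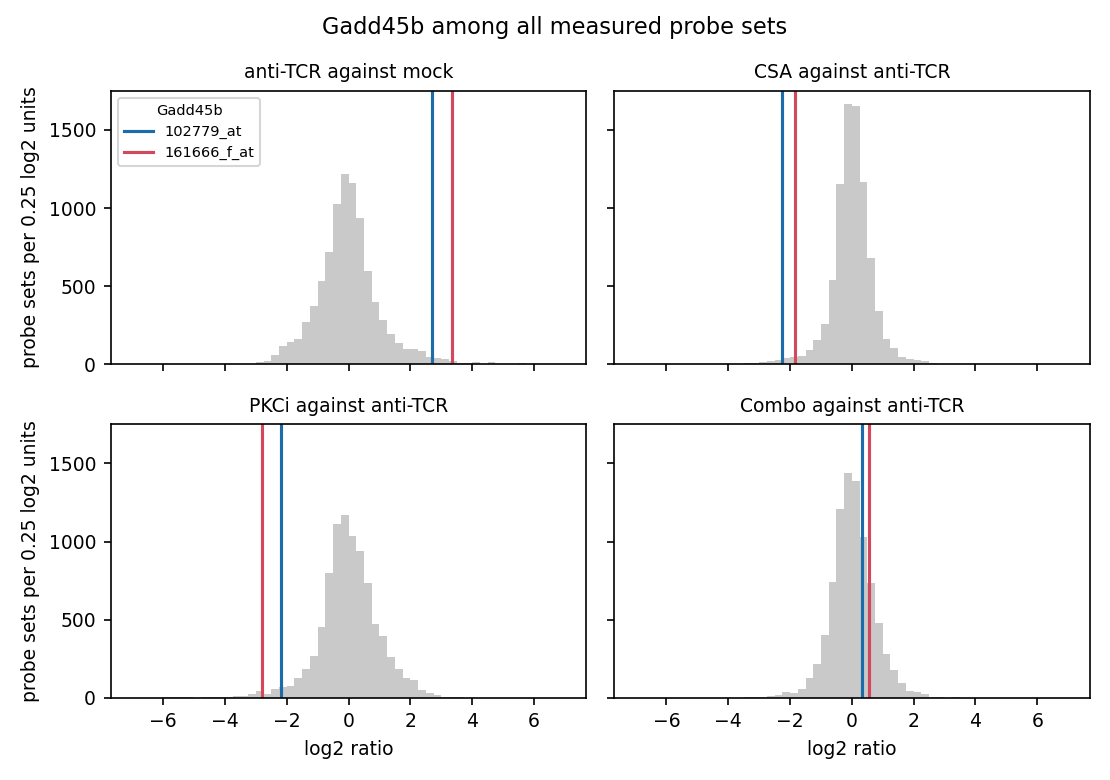
Number of measured probe sets (vertical axis) by log2 ratio in bins of 0.25 (horizontal axis) for the 4 comparisons, with the Gadd45b probe sets as vertical lines. The lines lie in the upper tail for anti-TCR against mock (2.69 and 3.36), in the lower tail for CSA (-2.25 and -1.85) and PKCi (-2.20 and -2.79), and within the bulk for Combo (0.32 and 0.56).

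Each inhibitor arm was also set against mock; these comparisons share arrays with those above and are not independent of them. With CSA, 161666_f_at, the 1 measured probe set, was 2.85-fold higher than mock (log2 ratio 1.51, 2.37 technical SDs), where 9.79% of probe sets rose, and 102779_at was 146.2 against 108.0, below the brightness rule. With PKCi the measured probe set read 248.3 against 166.6, which is 1.49-fold and not past 2-fold, where 7.54% of probe sets rose. With Combo both rose over mock, 8.03-fold and 15.2-fold, where 9.14% of 8740 measured probe sets rose. The mock values lay under the brightness rule, so 161666_f_at entered the CSA, PKCi and Combo comparisons, and 102779_at the Combo comparison, through the arm's value, and these counts are a description.

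Between the inhibitor arms, Gadd45b was lower with CSA and with PKCi than with Combo. Both probe sets were lower with CSA than with Combo (5.93-fold and 5.35-fold, where 6.56% of probe sets were lower) and lower with PKCi than with Combo (5.74-fold and 10.2-fold, where 5.41% were lower). Probe set 102779_at entered both comparisons through its Combo value alone, so its calls are a description. For 161666_f_at, bright enough in all 3 arms, the places from the lowest ratio were 29 of 8550 for CSA against Combo and 19 of 8486 for PKCi against Combo. CSA and PKCi were not called apart. The 1 probe set measured there, 161666_f_at, was 1.91-fold higher with CSA (log2 ratio 0.93, 1.72 technical SDs; 6.84% of probe sets were higher), and 102779_at read 146.2 and 151.2.

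Ordered by level, 102779_at ran Combo, anti-TCR, PKCi, CSA and mock, and 161666_f_at ran Combo, anti-TCR, CSA, PKCi and mock. The gap below anti-TCR was the only one between neighbours that exceeded 2 technical SDs. It was 2.20 on the log2 scale against 1.43 for 102779_at and 1.85 against 0.96 for 161666_f_at. Neighbours among the 3 lower treatments lay at most 0.44 and 0.93 apart. On 102779_at the widest gap among these 3 was 0.49 (PKCi over mock, within 2 technical SDs of 1.23), so their order was not resolved. On 161666_f_at CSA lay above mock by 1.51, past 2 technical SDs (1.28), while PKCi, between them, was not set apart from either.

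**Figure D3:**
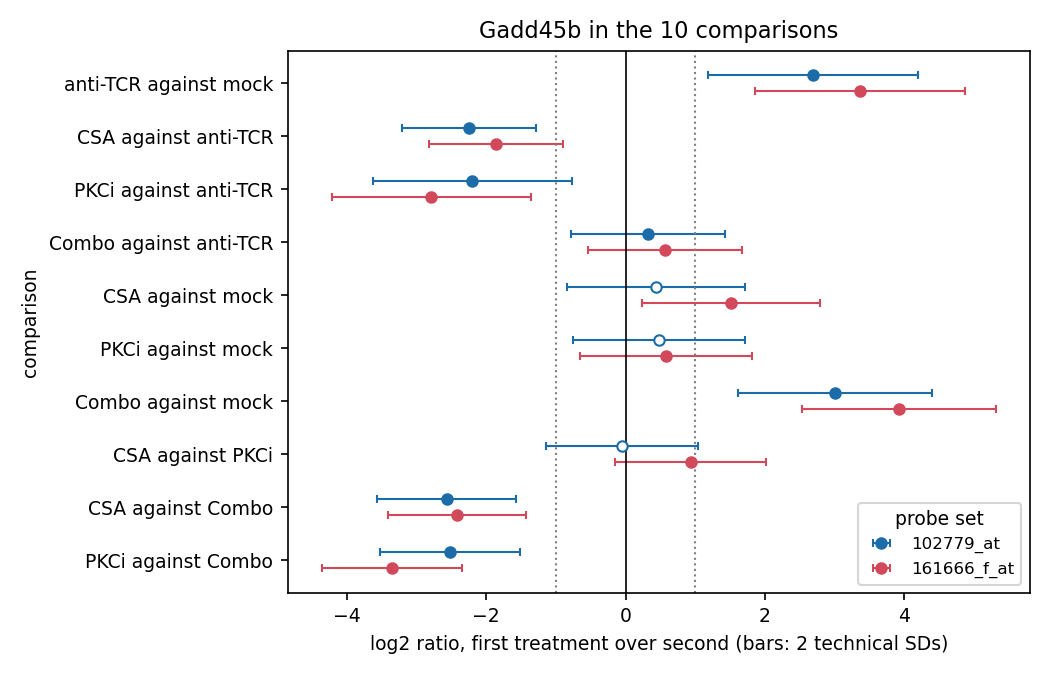
Log2 ratio (horizontal axis) of the Gadd45b probe sets in the 10 comparisons, first treatment over second, with bars of 2 technical SDs; open points were below the brightness rule and dotted lines mark 2-fold. The bars clear 0 for both probe sets in the 6 comparisons that set anti-TCR or Combo against mock, CSA or PKCi, and the CSA against mock bar clears it for 161666_f_at alone.

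The genes whose pattern lay nearest to Gadd45b were sought among 6372 genes by the root mean square difference of centred log2 values over the 5 treatments. For 161666_f_at they were Rgcc (0.35), a regulator of cell cycle kinases, Ndrg1 (0.44, on an s-suffixed probe set), Ier3 (0.47), an immediate early response gene, Mmd (0.48) and Stx11 (0.49), a syntaxin that serves granule release in lymphocytes. Rgcc read 187.3 with mock, 3167.9 with anti-TCR, 495.6 with CSA, 263.1 with PKCi and 2301.5 with Combo. In this gene too the anti-TCR and Combo arrays were high and the other arrays low. The distance between the Gadd45b probe sets themselves was 0.43, and 1 other probe set lay nearer to 161666_f_at.

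For 102779_at the nearest were Lag3 (0.20), an inhibitory receptor of activated T cells, Ndrg1 (0.23), Cryzl2 (0.25), Stx11 (0.27) and Ecel1 (0.28). All 5 lay nearer to 102779_at than the other Gadd45b probe set did (0.43). Lag3 read 74.2, 644.1, 91.7, 122.3 and 585.1 in the order of treatments above. Stx11 read 672.3, 4362.8, 1359.2, 1297.3 and 5139.2. Ndrg1, which was read on a different probe set each time, and Stx11 were among the 5 nearest of both Gadd45b probe sets. With 5 points from shared arrays, likeness of this kind is a description and names no shared control. No pattern was sought for Gadd45a and Gadd45g, whose floored values hold none.

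**Figure D4:**
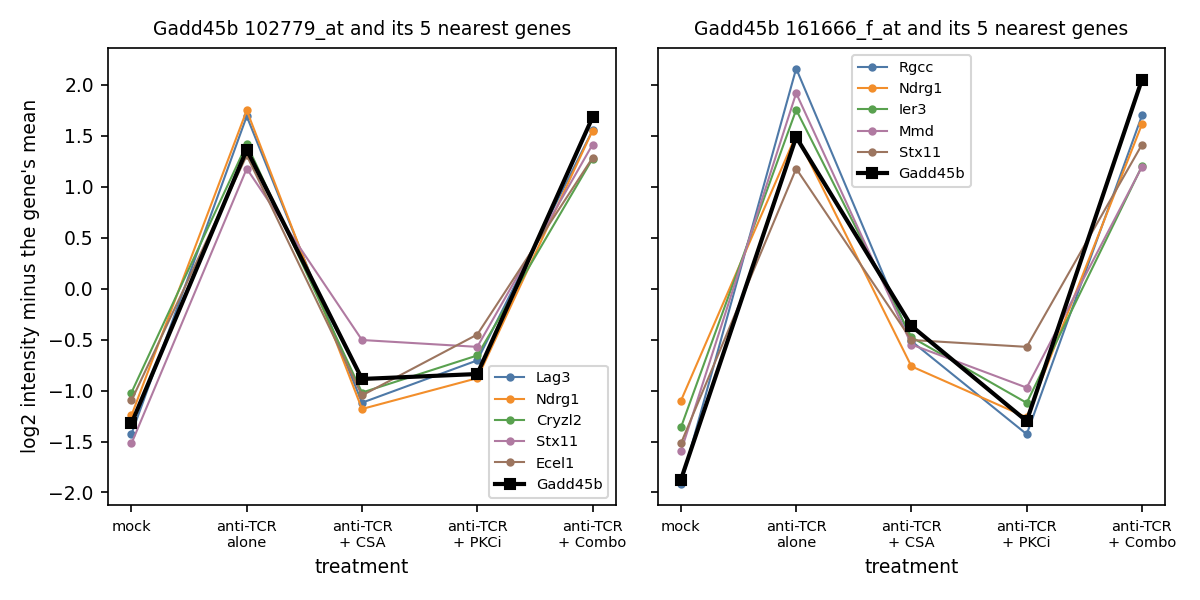
Log2 intensity minus each gene's mean over the 5 treatments (vertical axis) for the Gadd45b probe sets (black) and the 5 nearest genes of each (colours), 1 array per point. All are high with anti-TCR and Combo and low with mock, CSA and PKCi; Lag3 is the nearest to 102779_at (0.20) and Rgcc to 161666_f_at (0.35).

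The other genes of the Gadd45 pathway were read from their brightest probe set, with 11.4% of 5803 measured genes higher and 13.9% lower with anti-TCR. For the arms against anti-TCR the shares higher and lower were 4.84% and 5.34% with CSA, 14.3% and 9.75% with PKCi, and 7.95% and 5.46% with Combo. A listed gene could pass the brightness rule through its brighter value alone, so the list counts and medians here and below are descriptions. Among 13 measured transcription factors known to act on Gadd45 genes, 4 rose with anti-TCR and 2 fell (median log2 ratio 0.29, against -0.08 for all genes). Atf3, a stress factor, rose 9.24-fold on an f-suffixed probe set and Egr1 3.98-fold; Atf4 and Smad3 complete the count and were named after their values were seen. Smad4, the common partner of Smad factors, fell 2.79-fold and Foxo3 2.59-fold. Of 12 measured with CSA, Foxo1 rose 3.40-fold and Jund fell 4.25-fold (median -0.30, all genes 0.03). Egr1 read 674.7 with CSA and 639.0 with Combo against 345.5 with anti-TCR (log2 ratios 0.97 and 0.89, short of 2-fold). Gadd45b was low with CSA, and the part of Egr1 in the Gadd45b differences was not tested. With PKCi, Smad4 rose 2.26-fold and 3 of 12 fell, Egr1 at least 6.76-fold, Atf3 3.19-fold and Smad3, named to complete the count, 2.57-fold (median -0.34, all genes 0.03). With Combo 0 rose and 1 of 12 fell, Smad3 (2.12-fold; median -0.17, all genes 0.02), while Jund read 0.92 and, with median scaling, passed 2-fold at 1.03. The NF-kB subunit Rela read 1323.3 with mock and 2504.7 with anti-TCR, a log2 ratio of 0.92 and short of 2-fold; with median scaling it passed at 1.001, and 5 of 13 rose.

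Downstream of Gadd45 proteins, 8 genes from Map3k4 to the p38 and JNK kinases were measured with anti-TCR; 2 rose and 1 fell (median log2 ratio 0.08). Map2k3, a kinase that activates p38, read 494.2 with mock, 3068.7 with anti-TCR, 1294.2 with CSA, 1330.9 with PKCi and 2536.8 with Combo. Anti-TCR and Combo were its high arrays, as for Gadd45b, but its CSA and PKCi values stayed well above mock. Mapkapk3, a kinase that p38 activates, rose 2.38-fold, and Mapk9, a JNK, fell 2.18-fold. With CSA, 0 of 8 rose and 1 fell, Map2k3 (2.37-fold; median 0.01). With PKCi, 2 of 9 rose, Map3k4 (2.98-fold, f-suffixed) and the p38 gene Mapk14 (2.14-fold, s-suffixed), and Map2k3 fell 2.31-fold (median -0.09), a fall that quantile normalization left at -0.97, short of 2-fold. Mapkapk3 read -0.99 with PKCi and passed 2-fold with median scaling (-1.04), so that 2 fell. With Combo, Mapk14 rose 2.05-fold, the only change among 8 (median 0.08). Map3k4 itself, at 211.5 with mock and 92.3 after receptor stimulation, missed the brightness rule of its chip type in the first comparison.

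Of the cell cycle partners of Gadd45 proteins, 3 of the 9 on the arrays were measured. With anti-TCR 2 rose and 0 fell (median log2 ratio 2.08): Cdkn1a, which encodes p21, rose 5.48-fold, and Gadd45gip1, which encodes a partner protein of Gadd45g, at least 4.22-fold, while Pcna read 864.6 and 1570.1. Cdkn1a (108.8 with mock) and Gadd45gip1 (48.6 with mock) passed the brightness rule through their anti-TCR values alone, so this count and median are a description. With CSA 0 rose and 0 fell (median -0.19), and Cdkn1a read 657.3 against 595.9. Cdkn1a thus stayed high with CSA, where Gadd45b did not. With PKCi 0 rose and 2 fell, Cdkn1a 4.02-fold and Pcna 2.46-fold (median -1.30). With Combo 0 rose and 2 fell, Cdkn1a 2.43-fold and Gadd45gip1 2.41-fold (median -1.27).

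Targets of p53 moved in both directions. Of 12 measured with anti-TCR, 3 were higher and 6 lower (median log2 ratio -1.05). Sesn2 rose at least 8.36-fold on an i-suffixed probe set and Cdkn1a 5.48-fold, with Mdm2, the ubiquitin ligase for p53, named to complete the count; Plk3 fell 18.1-fold on an r-suffixed probe set and Sesn1 went from 350.7 to 70.2. Gadd45a, the member of the family that p53 acts on, was not measured. With CSA 1 of 6 rose, Bbc3 (2.69-fold, r-suffixed), and 1 fell, Sesn2 (at least 8.36-fold; median 0.37). With PKCi 6 of 11 rose and 2 fell (median 1.08), among them Sesn1 (5.01-fold higher) and Ddb2 (4.08-fold higher). The 2 that fell were Cdkn1a (4.02-fold) and Sesn2 (3.08-fold). Sesn1 (70.2 with anti-TCR), Ddb2 (94.6), Zmat3, Trp53inp1 and Bbc3 passed the brightness rule through their PKCi values alone. Cdkn1a and Sesn2 passed it through their anti-TCR values alone, so these counts and the median are a description. With Combo 1 of 6 rose, Trp53inp1 (2.77-fold), and 2 fell, Sesn2 (3.85-fold) and Cdkn1a (median 0.18). With median scaling 7 were measured with Combo, of which 2 rose and 2 fell (median 0.40).

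Other growth arrest and stress genes rose with anti-TCR in 5 of 9 measured cases and fell in 0 (median log2 ratio 1.497). Atf3 and Ier3 led, at 9.24-fold and 8.68-fold; Chac1, Hspa5 and Xbp1 complete the count and were named after their values were seen. With CSA, Ier3 fell 4.70-fold and Ddit4, an inhibitor of mTOR signalling, rose 4.15-fold, the 2 changes among 9 (median -0.10, which quantile normalization turned to 0.16). With PKCi, Ddit4 rose 5.74-fold and 4 fell (median -0.69), led by Ier3 (7.34-fold) and Chac1 (6.56-fold); Atf3 and Hspa5 complete the count, and Hspa5 did not pass with quantile normalization. With Combo 0 rose and 1 fell, Chac1 (2.81-fold; median -0.42). Ier3 was lower in the arms in which Gadd45b was lower, and read 2408.0 with Combo against 3532.2 with anti-TCR. It was among the 5 nearest genes of 161666_f_at above, so this likeness is the same observation and not a further one. Ddit3 (Gadd153) and Ppp1r15a (Gadd34), which carry the older Gadd names, were not bright enough to measure.

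The chip types hold 12422, 12411 and 11868 probe sets, and within a chip type the trimmed means (2% off each end) differed by at most 0.242% between arrays. Cell type markers were read against the labelled T cells: 10 of 11 T cell markers on the arrays reached the brightness rule, Cd4 among them, and Cd5 lay below the floor. Their summed level was 13369.4 with mock, 11742.6 with anti-TCR, 9329.9 with CSA, 8749.7 with PKCi and 11331.6 with Combo, so it was lower with CSA and PKCi, as Gadd45b was, but highest with mock, where Gadd45b was lowest. Of the 10, Cd3d (2.06-fold) and Cd3g (2.01-fold) fell with anti-TCR, Cd2 fell with CSA (3.49-fold) and Zap70 with PKCi (2.07-fold, s-suffixed); the anti-TCR falls did not pass with median scaling, nor those of Cd3g and Zap70 with quantile normalization. Cd8a and Cd8b1 lay below it too, while the NK receptors Klrd1, Klrk1 and Klrc1 were bright (3 of 6 CD8 T and NK markers). The summed level of the 6 was 6507.2 with mock, 3542.6 with anti-TCR, 4875.3 with CSA, 3743.8 with PKCi and 3296.0 with Combo. B cell markers reached the rule in 0 of 7 cases (summed level 245.1 to 319.8). Macrophage and dendritic cell markers reached it in 1 of 10, Cd14 (203.4 to 293.3), with a summed level over the 10 of 475.6 to 777.0. Of the 10, 5 lay below the floor on every array, among them Lyz2, Itgam and Adgre1. H2-Aa (59.9 to 179.1) and H2-Eb1 (62.7 to 170.1) lay above the floor of their chip type on every array, and Itgax and Cd68 on some. The part of these levels in the Gadd45b differences was not tested.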

How the data were processed

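Array intensity values were used as the authors deposited them; they are linear and not below 0, and trimmed means are nearly equal within a chip type, so a common scaling had been applied. Its method and software are not given in the sources used here. Detection calls were not used here. Groups come from the array titles. Probe sets were named from the platform annotation. Promoters come from RefSeq tables on GRCm38.p6 (3 of 3 members matched). Values below the floor (the chip type's median) were raised to it before log2. For the technical SD, each gene's brightest probe set per chip type was taken, log2 ratios were subtracted between chip types, and the SD of these differences was divided by the square root of 2.

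Named genes are the Gadd45 probe sets, the 5 nearest genes of each Gadd45b probe set (the second probe set was added later), and the 2 highest and 2 lowest of each list in a comparison; other genes, such as Rela, Ppp1r15a and unmeasured markers, were named after their values were seen. The members and lists were chosen with earlier results of these data known. Lists were transcription factors that act on Gadd45 genes, p53 targets, p38 and JNK kinases, cell cycle partners, stress genes, DNA methylation and demethylation genes, Th1 effector genes and cell type markers. The 2-fold call and the technical SD were tested on simulated data with changes planted in anti-TCR against mock. The other steps were not tested in this way. Python 3.11.15, pandas 2.3.3 and numpy 2.4.6 were used. Alternatives were median scaling, trimmed mean scaling, quantile normalization, 0.5 or 2 times the floor, 2 or 8 times the floor as minimum, 1.5-fold or 3-fold, other estimates of the spread, and correlation in place of distance.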

Additional observations from a re-analysis of the deposited data

How the results depend on the processing

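Over the 17 log2 ratios of the Gadd45b probe sets, 85 values under the scaling and floor alternatives all stayed within 1 technical SD of the main value, with 0 reversals. The lowest Gadd45b value, 108.0, lay above 2 times the floor of 51.1, so the floor alternatives could not change a ratio. Trimmed means of chip type A differed by only 0.232%, so trimmed mean scaling could change little. The check thus rests on median scaling and quantile normalization. The rise with anti-TCR ranged from 2.69 to 2.77 on 102779_at and from 3.28 to 3.44 on 161666_f_at, the fall with CSA from -2.30 to -2.25 and from -1.90 to -1.76, and the fall with PKCi from -2.22 to -2.20 and from -2.80 to -2.71. Of the counts of changed Gadd45 probe sets, 2 moved: CSA against PKCi went from 0 to 1 at 1.5-fold, and CSA against mock from 1 to 0 at 3-fold. Correlation in place of distance kept 0 of the 5 genes nearest to 161666_f_at. No paired analysis was possible because each treatment has a single array of chip type A and the labels carry no replicate numbers. The number of arrays limits the precision, and the spread between cultures is unknown.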

Other observations

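Gadd45 proteins have been linked to DNA demethylation. Genes listed for DNA methylation and demethylation, not all of which encode enzymes, were measured in 4 of 13 cases with anti-TCR. Of these 2 rose and 0 fell (median log2 ratio 0.80). Dnmt3a, a de novo methyltransferase, read 171.9 with mock, 963.4 with anti-TCR, 423.8 with CSA, 149.6 with PKCi and 380.1 with Combo, and Tet2, a methylcytosine oxidase, read 380.8, 1544.5, 646.2, 322.7 and 978.5. Both were highest with anti-TCR alone. With CSA, Tet2 fell 2.39-fold and Dnmt3a 2.27-fold and 0 of 4 rose (median -0.75). With PKCi, Dnmt3a fell 6.44-fold and Tet2 4.79-fold, and Xpa, a nucleotide excision repair gene, was 4.15-fold higher among 5 measured (median 0.35). With Combo, Dnmt3a fell 2.53-fold and Taf12 passed 2-fold (log2 ratio 1.001, on an r-suffixed probe set) among 5 measured (median 0.06), a call that the 3 other scalings did not give.

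Th1 effector genes rose in 3 of 7 measured cases with anti-TCR and fell in 2 (median 0.84). The chemokine gene Ccl3 (at least 26.7-fold) and Ifng led the rises, with Il18rap named to complete the count, and Stat4 (3.78-fold) and Tnf (2.52-fold) fell. Ifng, which encodes interferon gamma, read 151.3 with mock, 3260.6 with anti-TCR, 538.2 with CSA, 84.1 with PKCi and 1272.6 with Combo, where Gadd45b was at its brightest. With CSA 2 of 7 rose, Ccl4 and Tnf, and 3 fell, Ifng, Il18rap and Ccl3 (median -0.66). With PKCi 2 rose, Tnf and Stat4, and 4 fell, Ifng, Ccl3, Il18rap and Ccl4 (median -2.21). With Combo 4 rose, Tnf, Ccl4, Stat4 and Ccl3, and Ifng alone fell (median 1.01). The Stat4 rises passed 2-fold under neither arm with quantile normalization, and genes beyond the 2 highest and 2 lowest were named to complete the counts. By correlation over the 5 treatments the nearest gene to 161666_f_at was Stk26 (r = 0.996), whose values spanned 367.3 to 624.9. The next was Mapkapk2 (r = 0.995), a kinase that p38 activates, whose values spanned 831.6 to 1590.2. For 102779_at the nearest by correlation was Rbm38 (r = 0.991), and Mapkapk2 was not among its 5 nearest. With 5 points from shared arrays, these values are a description.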
